A study of Mus musculus with 3 samples.

Results

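The 6 genes described here are mt-Co1, mt-Co2, mt-Co3, mt-Cytb, mt-Atp6 and mt-Atp8, which are encoded by the mitochondrial genome and specify subunits of cytochrome c oxidase, the cytochrome bc1 complex and ATP synthase. They were taken by symbol from the gene list of the files, where each symbol stood once, and are 6 of 13 mitochondrially encoded genes and of 32285 genes in all. The other 7 mitochondrial genes encode subunits of complex I. All 6 were detected far above the floor of 10 CPM (UMIs of a gene in a total of 1000000 UMIs), so none was lost to a filter. The selection of genes used their symbols alone, although earlier results of these data were known, and the cells were chosen in part by their mitochondrial content, as given below.

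The study applied single-cell RNA sequencing to E14, a line of embryonic stem cells from mice of the 129/Ola background, kept in serum with leukemia inhibitory factor. The ethanol control received 0.007% ethanol for 6 h. The 3 h and 6 h libraries came from cells exposed for 3 or 6 h to 250 µg/mL cycloheximide, a drug that blocks elongation on cytosolic ribosomes, in 0.007% ethanol. All cells were detached with trypsin, frozen, shipped and thawed before droplets were made, and the series had 1 library per group, so that no difference below has a replicate check and time, culture and library cannot be told apart. The samples hold an ethanol control for the 6 h exposure and not for the 3 h exposure.

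Oxidative phosphorylation passes electrons along complexes I to IV of the inner mitochondrial membrane and uses the resulting proton gradient to make ATP. The mitochondrial genome encodes a few hydrophobic core subunits of these complexes, and the nucleus encodes all others. Mitochondrial ribosomes translate the former and resist cycloheximide, whereas nuclear subunits are made on the cytosolic ribosomes that the drug blocks. The heavy strand of the mitochondrial genome is transcribed as a long precursor, which is cut mostly at tRNAs into mRNAs that receive short poly(A) tails. Apart from mt-Nd6, all mitochondrial mRNAs come from this strand, and mt-Atp8 and mt-Atp6 share an mRNA.

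Cells were barcodes with at least 15000 UMIs (unique molecular identifiers, each standing for 1 captured RNA molecule) of which 1 to 20% came from mitochondrial genes. This gave 2187 control cells, 1739 cells after 3 h and 2554 cells after 6 h, holding between 87.3% and 92.9% of the UMIs of their library. The median depth was 43160 UMIs per cell in the ethanol control, 51726 after 3 h and 46200 after 6 h. The cells carried their labelled identity: all 10 embryonic stem cell markers were at 38.7 CPM or more in every library, and their summed level was 7281 CPM in the ethanol control, 8216 CPM after 3 h and 7320 CPM after 6 h. Dppa5a made up most of that sum (4771, 5327 and 5475 CPM). After 3 h, 8 of the 10 were above the control by CPM, with a median log2 ratio of 0.30, where 64.1% of genes above the floor were. After 6 h, 8 of the 10 were below it, with a median of -0.24, where 35.9% of genes were. At 6 h, 3 were at least 1.5-fold lower (Tfcp2l1 at -1.06, Zfp42 at -0.93 and Utf1 at -0.73), where 7.79% of genes were. The part of this in the results was not tested. The 14 markers of other cell types summed to 223, 148 and 113 CPM in the same order. Vim (181, 105 and 78.3 CPM) and Krt8 (24.2, 17.9 and 14.0 CPM) made up most of that sum, the other 12 reached at most 10.2 CPM, and Col3a1 was at 0 in every library. The summed level of these markers thus moved in the same order as that of the 6 genes, through Vim and Krt8. The median of the 14 markers did not follow that order: it was 1.18 CPM in the ethanol control, 1.57 CPM after 3 h and 1.49 CPM after 6 h. The part of these markers in the results was not tested. Control and 3 h cells shared 3 barcode sequences, control and 6 h cells 3, and 3 h and 6 h cells 1.

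The sequences of the 6 genes bear on how a method that primes on poly(A) and reads near the 3′ end can count them. Positions and sequences are those of GENCODE M21 on GRCm38, the assembly that mm10 denotes, and all 6 genes lie on the + strand of chromosome M. The last 30 bases of each gene are shown in genome order, with the stop codon, or the part of it that the genome encodes, in capitals.
mt-Co1: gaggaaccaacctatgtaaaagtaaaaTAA
mt-Co2: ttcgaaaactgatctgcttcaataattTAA
mt-Atp8: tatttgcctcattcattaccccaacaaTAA
mt-Atp6: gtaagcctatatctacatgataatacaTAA
mt-Co3: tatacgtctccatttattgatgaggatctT
mt-Cytb: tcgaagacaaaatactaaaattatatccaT
The annotated frames of mt-Co3 and mt-Cytb end on a lone T, 1 base beyond the last whole codon, and in such mRNAs the poly(A) tail completes the stop. The other 4 genes end on an encoded TAA. The end of mt-Atp8, at chrM:7969, lies inside mt-Atp6, which ends at chrM:8607, and so is not the end of their shared mRNA. From which reads the UMIs of mt-Atp8 came was not tested.

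The reading frames of mt-Atp8 and mt-Atp6 overlap. In the whole sequence of mt-Atp8 (chrM:7766-7969, 204 bases, + strand), shown because its count rests on it, capitals mark the 43 bases at chrM:7927-7969 that also open mt-Atp6.
mt-Atp8: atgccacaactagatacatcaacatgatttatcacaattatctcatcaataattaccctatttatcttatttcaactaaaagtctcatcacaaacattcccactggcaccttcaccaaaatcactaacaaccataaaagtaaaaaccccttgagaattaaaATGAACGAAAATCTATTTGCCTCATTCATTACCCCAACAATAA
Only 161 bases belong to mt-Atp8 alone. mt-Atp6 and mt-Co3 share a further 1 base, so no tRNA lies between them. The gene was the most A-rich of the 6, with 40.7% A against 29.5% to 34.1% in the others, and its densest stretch held 14 A in 20 bases against 11 to 13 in the others. How reads from the shared bases were assigned is not given in the sources used here, so the split between mt-Atp8 and mt-Atp6 is uncertain.

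Nuclear copies of mitochondrial DNA add a further uncertainty. The unprocessed pseudogenes Gm10925 (chr1:24613974-24614651), Gm28661 (chr1:24614885-24615565) and Gm28437 (chr1:24613189-24613971), all on the - strand, matched 678 of 681 bases of mt-Atp6, 681 of 684 bases of mt-Co2 and 783 of 784 bases of mt-Co3, with 0 differing bases in each. Gm29216 (chr1:24615706-24616197) matched 483 bases of mt-Co1 with 1 difference, and Gm13340 on chromosome 2 aligned with all 1545 bases of mt-Co1 at 97.6% identity. The closest annotated copy of mt-Cytb, Gm11410 on chromosome 4, was 92.9% identical, and the only annotated copy found for mt-Atp8 was its 43 shared bases within Gm10925. None of these pseudogenes was among the listed genes, and whether reads that match a gene and its copy were counted is not given.

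Transcripts of the 6 genes together made up a smaller part of the RNA after cycloheximide. Their summed level was 35628 CPM in the ethanol control (95% exact Poisson interval 35593 to 35663), 28960 CPM after 3 h (28927 to 28992) and 24738 CPM after 6 h (24712 to 24764). The 3 libraries were thus ordered by time under the drug, with intervals that do not overlap. The log2 ratio to the control was -0.30 after 3 h (interval -0.301 to -0.297), or 0.813 times the control level, and -0.53 after 6 h (-0.528 to -0.524), or 0.694 times. From 3 h to 6 h it was -0.23 (-0.230 to -0.225). These intervals and all others, except those for shares of cells, cover counting error only.

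The scaling decided how much of the difference after 3 h was seen. A cell held on average 1816 UMIs of the 6 genes in the ethanol control, 1779 after 3 h and 1359 after 6 h, so that per cell the log2 ratio was -0.029 after 3 h and -0.42 after 6 h. UMIs of nuclear genes per cell numbered 48630 in the ethanol control, 59279 after 3 h and 53326 after 6 h. The median log2 ratio of the 7608 genes whose mean level reached 10 CPM was 0.11 after 3 h and 0.17 after 6 h by CPM, and the sum lay at -0.41 and -0.69 relative to it. A change of scaling moves the sum and this median by the same amount. TMM factors shifted every ratio by -0.17 after 3 h and -0.29 after 6 h, and counts per cell shifted them by 0.27 and 0.11.

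By CPM, all 6 genes were below the control after 3 h, where 35.9% of genes were, and after 6 h, where 35.9% of genes were as well. All 6 were also lower after 6 h than after 3 h, as were 42.3% of genes. The share of all genes below 0 belongs to the scaling: with TMM factors all 6 were below the control at both times, where 57.4% and 59.5% of genes were, and below the 3 h library after 6 h, where 61.9% were. By UMIs per cell, 4 of the 6 were below the control after 3 h, where 10.9% of genes were, and all 6 after 6 h, where 28.4% were, and all 6 were lower after 6 h than after 3 h, where 69.6% were. A level at least 1.5-fold lower was met after 3 h by mt-Atp8 alone (1 of 6, against 2.13% of genes) and after 6 h by mt-Atp8, mt-Cytb and mt-Co1 (3 of 6, against 7.79% of genes). The count after 6 h depended on the scaling: it was 6 of 6 with TMM factors, against 16.9% of genes, 4 of 6 by CPM of nuclear UMIs, against 8.20% of genes, and 1 of 6 (mt-Atp8) by UMIs per cell, against 5.49% of genes. Without mitochondrial limits on the cells, mt-Co1 was at -0.57 and the count was 2, a setting for which the share of all genes was not computed. After 3 h the count was 2 of 6 with TMM factors, against 5.23% of genes. Between 6 h and 3 h it was met by 0 of 6, against 2.52% of genes. None of the 6 was 1.5-fold higher in any comparison, where 13.9% (3 h against control), 22.1% (6 h against control) and 1.74% (6 h against 3 h) of genes were. The comparisons of 3 h and 6 h share the control library, so they are not independent of each other. On the scale of UMIs per cell, 2 of the 6 (mt-Co2 with mt-Co3) lay above the control after 3 h, as did 89.1% of genes. The median of the 6 log2 ratios was -0.36 after 3 h and -0.61 after 6 h, beside 5th percentiles of all genes at -0.42 and -0.73. Below those percentiles lay mt-Atp8 at both times and mt-Co1, at -0.43, after 3 h.

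**Figure D1:**
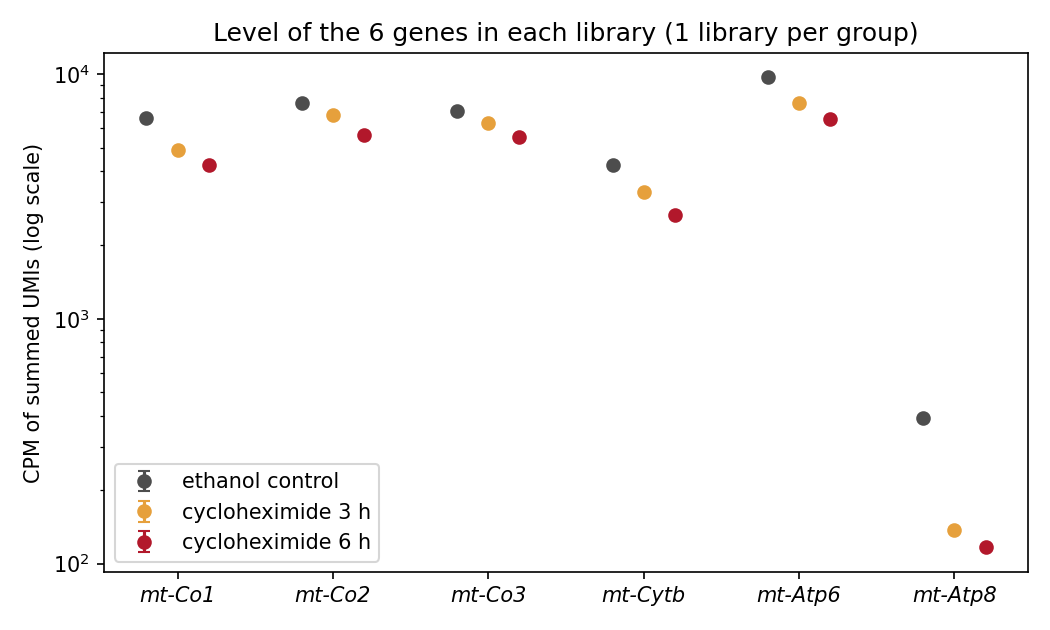
Level of each gene in CPM of summed UMIs, on a log axis, in the ethanol control and after 3 h and 6 h of cycloheximide, with 95% exact Poisson intervals that are smaller than the symbols. By CPM each gene is lower after 3 h and lower again after 6 h, with mt-Atp8 at 394, 138 and 117 CPM; counted per cell, mt-Co3 and mt-Co2 lay above the control after 3 h.

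mt-Cytb (ENSMUSG00000064370, chrM:14145-15288) encodes cytochrome b, the only mitochondrially encoded subunit of complex III, which holds the quinone-binding sites. Its level was 4261 CPM in the ethanol control (4249 to 4273), 3302 CPM after 3 h (3291 to 3313) and 2662 CPM after 6 h (2653 to 2670). The log2 ratio was -0.37 after 3 h and -0.68 after 6 h, and -0.31 between the times. This last step was larger than that of any of the other 5 genes, which ranged from -0.26 to -0.18.

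The catalytic core of cytochrome c oxidase, complex IV, is formed by the products of mt-Co1 to mt-Co3. mt-Co1 (ENSMUSG00000064351, chrM:5328-6872), whose product carries the site of oxygen reduction, had 6594 CPM in the ethanol control (6579 to 6610), 4887 CPM after 3 h (4874 to 4900) and 4228 CPM after 6 h (4217 to 4238). Its log2 ratio was -0.43 after 3 h and -0.64 after 6 h. It was the lowest of the 3 oxidase genes relative to control at both times.

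mt-Co2 (ENSMUSG00000064354, chrM:7013-7696), whose product receives electrons from cytochrome c, had 7592 CPM in the ethanol control (7576 to 7609), 6765 CPM after 3 h (6750 to 6781) and 5640 CPM after 6 h (5628 to 5652). mt-Co3 (ENSMUSG00000064358, chrM:8607-9390), which encodes the remaining core subunit, had 7060 CPM in the ethanol control (7045 to 7076), 6285 CPM after 3 h (6270 to 6300) and 5543 CPM after 6 h (5531 to 5555). These were the 2 genes closest to the control, with log2 ratios of -0.17 and -0.17 after 3 h and of -0.43 and -0.35 after 6 h. Their sign after 3 h depended on the scaling: per cell, mt-Co2 was at 416 UMIs against 387 in the ethanol control and mt-Co3 at 386 against 360, log2 ratios of 0.10 and 0.10.

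The 3 oxidase genes thus differed in their ratios, although they are parts of the same precursor. Per 100 UMIs of mt-Co1 there were 107 of mt-Co3 in the ethanol control (106.7 to 107.4), 129 after 3 h (128 to 129) and 131 after 6 h (130.7 to 131.6). The log2 ratio of mt-Co3 exceeded that of mt-Co1 by 0.26 after 3 h (0.258 to 0.271) and by 0.29 after 6 h (0.286 to 0.299). For mt-Co2 the excess over mt-Co1 was 0.27 after 3 h and 0.21 after 6 h. Differences between genes of a library do not depend on its scaling.

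mt-Atp6 (ENSMUSG00000064357, chrM:7927-8607) encodes subunit a, which forms the proton path of ATP synthase. It had 9726 CPM in the ethanol control (9708 to 9745), 7582 CPM after 3 h (7566 to 7599) and 6548 CPM after 6 h (6535 to 6562). The log2 ratio of -0.36 after 3 h and -0.57 after 6 h lay between those of mt-Co1 and mt-Co2.

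mt-Atp8 (ENSMUSG00000064356) encodes a small membrane subunit of the same enzyme and stood apart from the other 5. It had 43880 UMIs or 394 CPM in the ethanol control (390 to 397), 14709 UMIs or 138 CPM after 3 h (135 to 140) and 16456 UMIs or 117 CPM after 6 h (115 to 119). The log2 ratio was -1.52 after 3 h (-1.54 to -1.49) and -1.75 after 6 h (-1.77 to -1.72), below the 5th percentile of all genes at both times. Between 3 h and 6 h its ratio of -0.23 (-0.26 to -0.20) was within the range of the other 5 genes, so that its difference from them was present after 3 h.

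mt-Atp6, which lies on the same mRNA, gives the closest comparison. Per 100 UMIs of mt-Atp6 there were 4.05 of mt-Atp8 in the ethanol control (4.01 to 4.09), 1.82 after 3 h (1.79 to 1.85) and 1.79 after 6 h (1.76 to 1.82). The log2 ratio of mt-Atp8 minus that of mt-Atp6 was -1.16 after 3 h (-1.18 to -1.13) and -1.18 after 6 h (-1.20 to -1.15), and between 6 h and 3 h it was -0.020, with an interval of -0.052 to 0.013. In single cells the median was 3.83 mt-Atp8 per 100 mt-Atp6 in the ethanol control (quartiles 2.88 and 5.14), 1.69 after 3 h (1.15 and 2.50) and 1.65 after 6 h (1.05 and 2.43). The upper quartiles after cycloheximide lay below the lower quartile of the control. In the sequence printed above, only the lower-case part can give UMIs to mt-Atp8 that mt-Atp6 could not also claim.

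**Figure D2:**
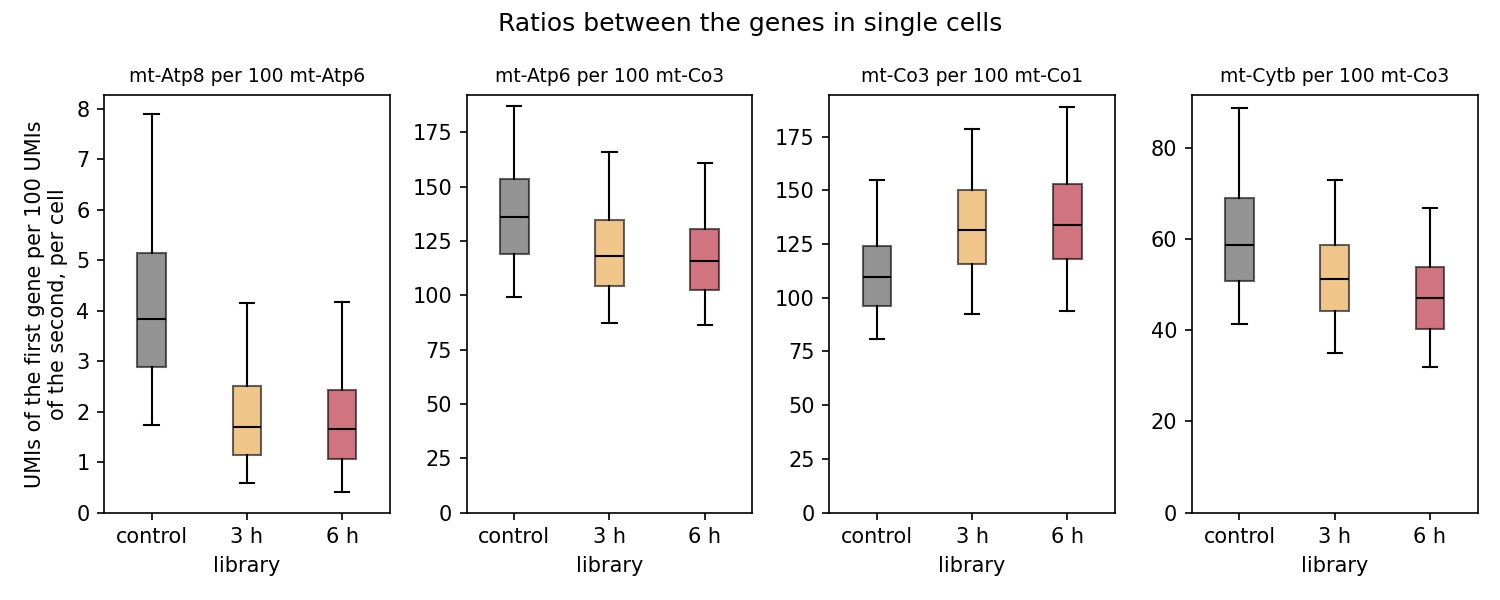
UMIs of a gene per 100 UMIs of a second gene in single cells of each library, with boxes for the quartiles, a line for the median and whiskers from the 5th to the 95th percentile of cells. The median of mt-Atp8 per 100 mt-Atp6 goes from 3.83 in the ethanol control to 1.69 and 1.65, whereas the boxes of the other 3 pairs overlap between control and cycloheximide.

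Divided by the length of the gene, the order of the levels was the same in all 3 libraries: mt-Atp6, mt-Co2, mt-Co3, mt-Co1, mt-Cytb and mt-Atp8. In the control, mt-Atp6 was at 14283 CPM per kb, mt-Co2 at 11100, mt-Co3 at 9006, mt-Co1 at 4268, mt-Cytb at 3724 and mt-Atp8 at 1930 CPM per kb. At 6 h the same genes were at 9616, 8246, 7070, 2736, 2327 and 575 CPM per kb. Neighbours in this order were separated by more than their counting intervals. A 3′ method counts a molecule near its tail whatever its length, so that levels per length compare genes only loosely, and sequence near the tail and nuclear copies can change how many molecules are counted.

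Within the mitochondrial transcripts, the 6 genes held a larger share after cycloheximide. They made up 78.0% of mitochondrial UMIs in the ethanol control (exact binomial interval 77.9 to 78.0), 82.4% after 3 h (82.35 to 82.43) and 84.1% after 6 h (84.09 to 84.16). In the order control, 3 h and 6 h, mt-Co2 held 16.6%, 19.2% and 19.2% of mitochondrial UMIs, and mt-Co3 15.5%, 17.9% and 18.8%. mt-Atp8 held a smaller part after cycloheximide, with 0.862%, 0.392% and 0.399%. mt-Co1 (14.4%, 13.9% and 14.4%) and mt-Cytb (9.32%, 9.39% and 9.05%) held nearly the same part in each library.

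The complex I genes were lower still. Their summed ratio was -0.70 after 3 h and -1.11 after 6 h on the log2 scale, and a level at least 1.5-fold lower was met by 4 of the 7 after 3 h (2.13% of genes) and by all 7 after 6 h (7.79% of genes). At 6 h, mt-Nd4 was at -0.86, mt-Nd3 at -0.97, mt-Nd2 at -1.06, mt-Nd5 at -1.16, mt-Nd1 at -1.32, mt-Nd4l at -1.67 and mt-Nd6 at -1.78. Each of these was below the 5 members other than mt-Atp8, whose lowest ratio was the -0.68 of mt-Cytb. mt-Atp8, at -1.75, was between mt-Nd4l and mt-Nd6.

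**Figure D3:**
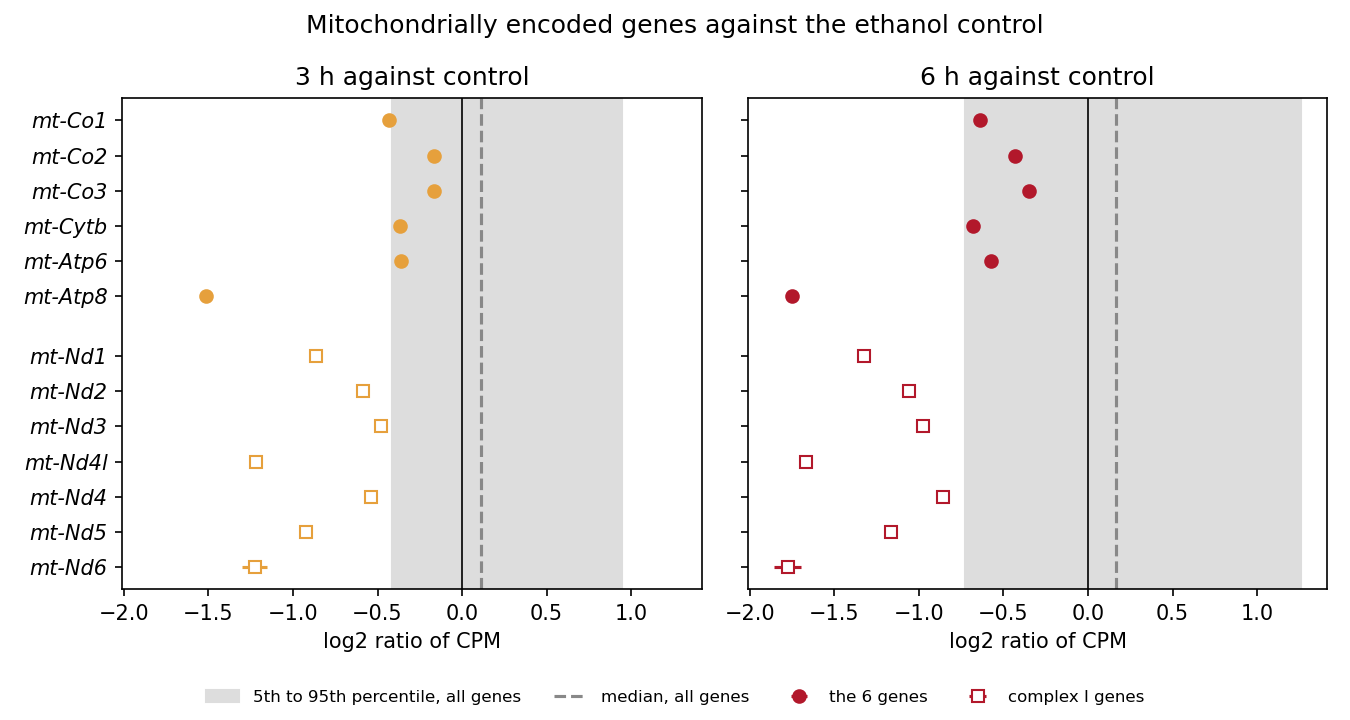
Log2 ratio of CPM against the ethanol control after 3 h (left) and 6 h (right) for the 6 genes (filled circles) and the 7 complex I genes (open squares), with 95% counting intervals. The grey band spans the 5th to 95th percentile of the 7608 genes and the dashed line their median, at 0.11 and 0.17; mt-Atp8, mt-Co1 and all complex I genes lie below the band after 3 h, and mt-Atp8 and all complex I genes after 6 h.

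The lower share after 3 h and 6 h was spread over the cells and was not the property of a few. The median cell devoted 3.57% of its UMIs to the 6 genes in the ethanol control (quartiles 3.02 and 4.12), 2.89% after 3 h (2.48 and 3.37) and 2.44% after 6 h (2.11 and 2.82). Of 6 h cells, 93.3% were below the control median (exact binomial interval 92.3 to 94.2), and so were 81.9% of 3 h cells (79.99 to 83.67). These intervals, and those by gene below, cover the draw of cells within 1 library. They take the control median as fixed, and cells are not replicates of a condition. Below the 10th percentile of the control, at 2.58%, lay 60.2% of 6 h cells and 30.6% of 3 h cells. The lowest cells were at 0.927%, 0.964% and 0.844%, a low end set by the limit of 1% mitochondrial UMIs. The highest were at 14.7%, 10.1% and 10.7%, and 5 cells in each library were above 8%.

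By gene, the share of 6 h cells below the control median ranged from 82.5% for mt-Co3 (80.9 to 83.9) to 98.4% for mt-Atp8 (97.9 to 98.9). At 3 h the range ran from 65.3% for mt-Co3 to 96.9% for mt-Atp8. Every cell had a UMI of mt-Co1, mt-Co2, mt-Co3, mt-Cytb and mt-Atp6. mt-Atp8 was without a UMI in 2 control cells, 12 cells after 3 h and 62 cells after 6 h. After each cell was thinned to 15000 UMIs, it was without a UMI in 34 of 2187, 285 of 1739 and 505 of 2554 cells.

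**Figure D4:**
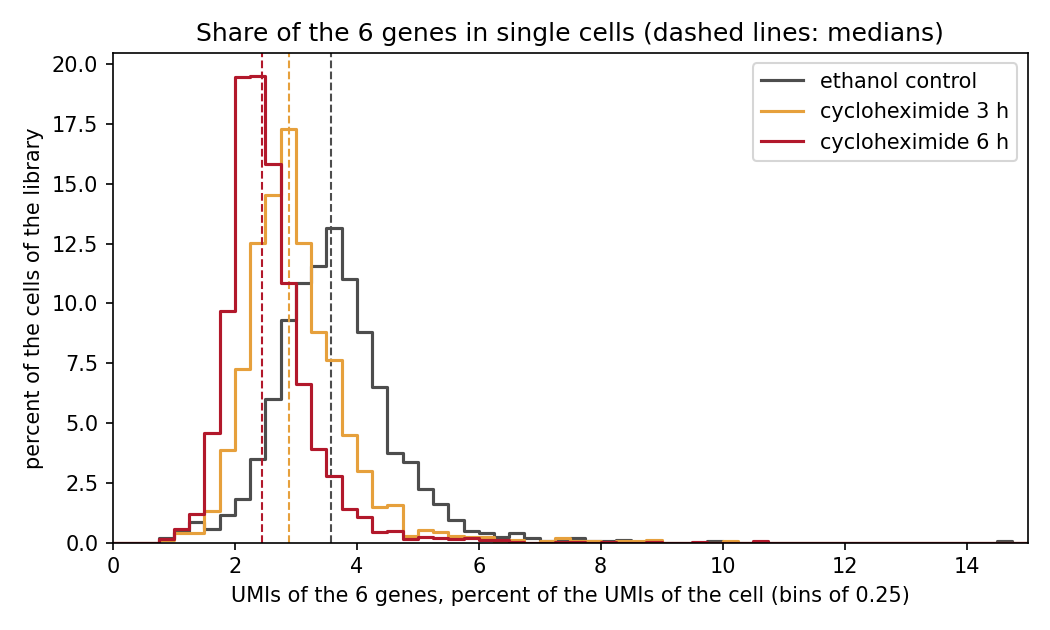
Percent of the UMIs of a cell that came from the 6 genes (x axis, bins of 0.25) against percent of the cells of the library (y axis), with dashed lines at the medians of 3.57%, 2.89% and 2.44%. Among the cells used, each library forms 1 peak, and the peaks shift left from control to 3 h to 6 h with wide overlap. Barcodes under 1% mitochondrial UMIs (62 in the control, 1 after 3 h and 8 after 6 h) were left out, so the low end is set by that limit.

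Depth differed between libraries, so the share was compared among cells of like depth. In cells of 30000 to 45000 UMIs the median share was 3.56% in 863 control cells, 3.04% in 462 cells after 3 h and 2.48% in 894 cells after 6 h. The order of the libraries was the same in all 5 depth bands. The log2 ratio of the sum after 6 h lay between -0.56 and -0.38 over the bands, and after 3 h between -0.32 and -0.13, with the value nearest 0 at both times in the shallowest band, 15000 to 30000 UMIs. Shallow cells had the highest shares in each library, and Spearman's rho between share and UMIs across cells was -0.12 in the ethanol control, -0.25 after 3 h and -0.23 after 6 h, where each cell's UMIs enter both measures. For mt-Atp8 the log2 ratio ranged from -1.91 to -1.53 after 6 h and from -1.59 to -1.13 after 3 h. Between 6 h and 3 h, mt-Atp8 was lower than the sum in 3 of the 5 bands: it was at -0.40 beside -0.26 in cells of 15000 to 30000 UMIs, at -0.32 beside -0.28 in those of 30000 to 45000, and at -0.32 beside -0.24 in those of 90000 or more. In the remaining bands it was at -0.24 beside -0.24 and at -0.19 beside -0.21.

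**Figure D5:**
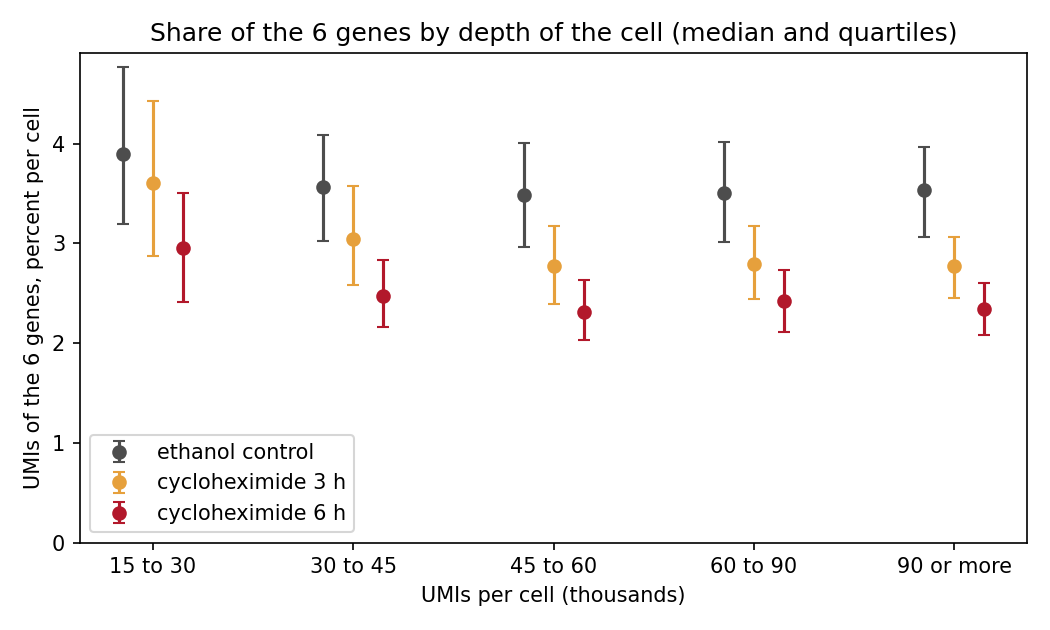
Median and quartiles of the percent of UMIs from the 6 genes in cells of 5 depth bands, for each library. The control lies above the 3 h library and the 3 h library above the 6 h library in every band, and the shallowest band is the highest in each library (3.90%, 3.61% and 2.96%).

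The limits that chose the cells use mitochondrial UMIs, so they touch these values. Of barcodes with at least 15000 UMIs, 62 in the ethanol control, 1 after 3 h and 8 after 6 h were left out for under 1% mitochondrial UMIs, and 0 for over 20%. The 62 control barcodes had a median of 110694 UMIs and a median share of 0.179% from the 6 genes, while the 15 control cells just inside the limit, with 1 to 1.5% mitochondrial UMIs, had a median of 97793 UMIs and a share of 1.16%. With all these barcodes kept, the log2 ratio of the sum was -0.22 after 3 h and -0.45 after 6 h. At the UMI limit, the median share was 5.06% in 15 control barcodes of 13000 to 15000 UMIs and 5.37% in 16 of 15000 to 17000 UMIs. The same pair of medians was 4.40% and 4.12% after 3 h, and 2.80% and 3.47% after 6 h.

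Free RNA was read from barcodes with 10 to 100 UMIs. There the 6 genes held 2.44% of UMIs in the ethanol control, 2.21% after 3 h and 1.59% after 6 h, below the share in cells and in the same order. mt-Atp8 had 225, 103 and 82.4 CPM in free RNA. The part of free RNA in the results was not tested beyond the subtraction of 10% free RNA, which left the summed log2 ratio at -0.31 after 3 h and -0.52 after 6 h.

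From cell to cell, the genes other than mt-Atp8 varied together. At 15000 UMIs per cell, Pearson's r over the 10 pairs without mt-Atp8 had a median of 0.70 in the ethanol control (0.44 to 0.84, n = 2187 cells), 0.72 after 3 h (0.52 to 0.82, n = 1739) and 0.70 after 6 h (0.55 to 0.81, n = 2554). The 5 pairs with mt-Atp8 had medians of 0.30, 0.29 and 0.31, at means of 6.08, 2.20 and 1.91 thinned UMIs per cell, where counting noise lowers r. All pairs share a library and a fixed total, so these values only describe.

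Beyond counting noise, the sum varied between cells with a coefficient of variation of 26.8% in the ethanol control, 28.1% after 3 h and 29.2% after 6 h. At 30000 UMIs per cell the values were 24.0%, 22.8% and 23.2%, so no order of the libraries is read from them. That setting kept only cells of at least 30000 UMIs (1876, 1546 and 2241 cells), so the set of cells changed along with the depth. mt-Atp8 varied most, at 41.0%, 51.1% and 54.7%, while mt-Co2 was at 28.7%, 27.7% and 28.5%.

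The listed nuclear partners of the same complexes stayed near the control. None of the 9 nuclear genes of complex III, 12 of complex IV or 18 of ATP synthase passed a 1.5-fold change in either direction after 3 h or 6 h, where 2.13% and 7.79% of genes were 1.5-fold lower and 13.9% and 22.1% were 1.5-fold higher. Their medians after 6 h were 0.099, 0.021 and 0.055, beside the all-gene median of 0.17. Cox7c, a small oxidase subunit and the most abundant of that list, had 1894 CPM in the ethanol control, 1619 CPM after 3 h and 1655 CPM after 6 h, the lowest ratio in its list at -0.19. Cox7a2l, which takes part in joining complexes III and IV, was the highest at 0.42. In complex III, Uqcr11 was lowest at -0.22 and the core subunit Uqcrc1 highest at 0.37, with Uqcrq, the most abundant, at -0.063. In ATP synthase, Atp5k was lowest at -0.17 and Atp5o, of the peripheral stalk, highest at 0.33, with the catalytic beta subunit Atp5b, the most abundant, at 0.21. By UMIs per cell Uqcrq was at 0.046, so signs this close to 0 turned with the scaling. The lists do not hold every subunit. Cox6b2, an oxidase subunit outside them, had a mean of 1.57 UMIs per cell in the ethanol control, 0.99 after 3 h and 1.06 after 6 h, in cells thinned to 30000 UMIs.

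Of 30 listed genes for mitochondrial transcription, DNA replication and RNA handling, 28 passed the floor, with a median of 0.21 after 6 h. At 6 h, 3 were at least 1.5-fold lower (Twnk at -1.11, Tfb2m at -1.06 and Rexo2 at -0.69) and 4 at least 1.5-fold higher (Polg2 at 1.68, Trmt10c at 1.24, Mtpap at 0.99 and Supv3l1 at 0.78), of which Twnk, Tfb2m, Polg2, Mtpap and Supv3l1 were named after their values were seen. Over all genes, 7.79% were 1.5-fold lower and 22.1% 1.5-fold higher. Twnk and Polg2 act in the replication of mitochondrial DNA. Twnk, Tfb2m and Polg2 lay near the floor of 10 CPM, with means over the libraries of 13.1, 12.6 and 14.5 CPM. Rexo2, an exonuclease that degrades short RNAs in mitochondria, was the lowest of at least 20 CPM, with 207 CPM in the ethanol control, 144 CPM after 3 h and 128 CPM after 6 h. Trmt10c, a subunit of the enzyme that cuts tRNA 5′ ends out of the precursor, was the highest among those of at least 20 CPM, with 44.7, 105 and 106 CPM. Ssbp1, the mitochondrial single-stranded DNA-binding protein and the most abundant of the list, was at -0.21.

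Of 27 listed assembly factors of complexes III, IV and ATP synthase, 24 passed the floor, with a median of 0.52 after 6 h. None was 1.5-fold lower after 6 h, where 7.79% of all genes were, and 10 of the 24 were 1.5-fold higher, where 22.1% of all genes were. Uqcc1, an assembly factor of complex III, was highest at 1.07 (17.6 CPM in the ethanol control, 28.0 CPM after 3 h and 36.9 CPM after 6 h). Cox17, a copper chaperone of the oxidase, was both lowest, at -0.23, and most abundant.

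Over the 3 libraries, the nuclear genes of at least 100 CPM whose log2 ratios came close to those of the summed genes included Snrpd3, a core spliceosome protein, Kif20b, a mitotic kinesin, Parp1, an ADP-ribose polymerase, and Psat1, an enzyme of serine synthesis. Their distances in the pair of ratios were 0.028 to 0.034 on the log2 scale, among 1571 genes. Snrpd3 was at -0.31 after 3 h and -0.55 after 6 h, and Parp1 at -0.31 and -0.49. Likeness over 2 ratios from 3 libraries is loose, and both ratios share the control.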

How the data were processed

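The authors deposited raw UMI counts per gene and barcode, 1 matrix per library, written by Cell Ranger 4.0.0 on mm10 per the submitters' processing notes. The annotation, the assignment of reads shared between genes and the read length are not given in the sources used here. The matrices hold all 6794880 barcodes, so cells were selected here as described, and doublets were not removed. Counts were summed over the cells of each library and divided by the total of the same cells to give CPM. Log2 ratios used a prior of 0.5 counts. Intervals (95%) were exact Poisson for levels, exact conditional binomial for ratios, Clopper-Pearson for shares and, for differences between genes, normal on the log scale. They cover counting error only, except that those for shares of cells cover the draw of cells within 1 library. No test between conditions was made with 1 library per group. The calculations were tested on simulated data, and 13 alternatives of cell limits, scaling, free RNA and prior were tried. Cells were thinned without replacement to 15000 UMIs, which left out no cell, for variation and correlations. TMM factors came from edgeR 4.0.16 in R 4.3.3, other steps from Python 3.11.15, numpy 2.4.6 and scipy 1.17.1.

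Named genes were the 6 genes, the complex I genes, the lowest, highest and most abundant of each nuclear list at 6 h (mean of at least 20 CPM), and the 5 closest genes by pattern over libraries and by correlation across cells. Of the closest by pattern, 1 is not reported here. Called changes were 1.5-fold among genes whose mean level reached 10 CPM. The genes and lists were chosen with earlier results of these data known. Nuclear copies were found by shared runs of 30 bases among annotated transcripts.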

Additional observations from a re-analysis of the deposited data

How the results depend on the processing

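Over 13 alternatives, the summed log2 ratio stayed below 0 in all 3 comparisons, and 232 of 234 ratios of single genes did. The exceptions were mt-Co2 and mt-Co3 at 3 h by mean UMIs per cell, at 0.10 and 0.10. The alternatives rework the same counts of 3 libraries, so the 234 ratios are not separate results. For 3 h against control, 35.9% of all genes were below 0 by CPM, 57.4% with TMM factors and 10.9% by UMIs per cell. For 6 h against control the shares were 35.9%, 59.5% and 28.4%, and for 6 h against 3 h 42.3%, 61.9% and 69.6%. The summed ratios are given in the order 3 h against control, 6 h against control and 6 h against 3 h, where the reported values are -0.30, -0.53 and -0.23. Mean UMIs per cell gave -0.029, -0.42 and -0.39, and TMM factors -0.47, -0.81 and -0.34. CPM of UMIs from nuclear genes gave -0.31, -0.55 and -0.24, and the mean share over cells -0.27, -0.51 and -0.23. Subtraction of 10% free RNA gave -0.31, -0.52 and -0.21. A minimum of 5000 UMIs gave -0.29, -0.52 and -0.23, and of 30000 UMIs -0.30, -0.53 and -0.23. Cells of 30000 to 60000 UMIs gave -0.28, -0.53 and -0.25. A lower mitochondrial limit of 2% gave -0.31, -0.52 and -0.21, and no mitochondrial limits -0.22, -0.45 and -0.23. Without cells above 2 times the median UMIs the ratios were -0.29, -0.52 and -0.23. An upper limit of 10% and a prior of 5 counts stayed within the counting intervals. The number of the 6 genes at least 1.5-fold lower after 6 h was 3, against 7.79% of all genes. It was 6 with TMM factors (16.9% of all genes), 4 by CPM of nuclear UMIs (8.20%) and 1 by UMIs per cell (5.49%). Without mitochondrial limits it was 2, where the share of all genes was not computed. After 3 h it was 1 (2.13% of all genes), and 2 with TMM factors (5.23%). The ratio of mt-Atp8 ranged from -1.69 to -1.25 at 3 h and from -2.03 to -1.64 at 6 h. No paired analysis was possible because each group has 1 library. For the same reason no library could be left out, and the spread between cultures is unknown.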

Other observations

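The mitochondrial genome holds a further pair of overlapping genes on a shared mRNA, mt-Nd4l and mt-Nd4, both of complex I. Per 100 UMIs of mt-Nd4 there were 19.7 of mt-Nd4l in the ethanol control, 12.3 after 3 h and 11.2 after 6 h. The log2 ratio of mt-Nd4l minus that of mt-Nd4 was -0.69 for 3 h (-0.71 to -0.66) and -0.81 for 6 h (-0.84 to -0.79), beside -1.16 and -1.18 for mt-Atp8 minus mt-Atp6. Between 6 h and 3 h it was -0.13 (-0.16 to -0.10), beside -0.020 (-0.052 to 0.013) for mt-Atp8 minus mt-Atp6. Whether the pairs differ beyond the spread between cultures cannot be read from 1 library per group.

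Across cells, the nuclear genes that followed the summed 6 genes most closely, by the mean of r over the 3 libraries at 15000 UMIs per cell, were Gm42418 (0.23), AY036118 (0.21), Lars2 (0.21), Ccng1 (0.19) and Sdc4 (0.18), among 6043 genes with a median of 0.0071. At 30000 UMIs per cell they were Ccng1 (0.23), Cox6b2 (0.23), Trp53inp1 (0.21), Dcxr (0.21) and Rps27l (0.20). This setting used only cells of at least 30000 UMIs and 7926 genes. Ccng1, a cyclin G induced by p53, was the gene in both sets, and Cox6b2 encodes an oxidase subunit. Correlations of this size in thinned counts describe these libraries and no more.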
